A study of Mus musculus with 27 samples.

Results

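The genes described here encode the receptors for glutamate and GABA, the main excitatory and inhibitory transmitters of the brain. They were chosen by symbol: every named gene of the arrays whose symbol was Gria, Grik, Grin, Grm, Gabra, Gabrb, Gabrg, Gabrd, Gabre, Gabrq, Gabrr or Gabbr, with or without a number or letter after it, other than Grina. The rule took 36 of 19057 named genes, and 24 of the 36 were measured in brain, against 11429 named genes measured there in all. A gene counted as measured when 3 or more of the 9 brain arrays gave its probe a detection p under 0.05. A detection p is the share of negative control beads that shine at least as brightly as the probe. By receptor class, 3 of 4 AMPA, 4 of 5 kainate, 4 of 6 NMDA, 4 of 6 metabotropic glutamate, 7 of 10 GABA-A, 0 of 3 rho-type GABA-A and 2 of 2 GABA-B receptor genes were measured.

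The samples were brain, liver and bone marrow of 3 genotypes: wild type, heterozygous and homozygous for Mysm1tm1a(KOMP)WTSI, a knockout-first allele of the histone H2A deubiquitinase Mysm1. All animals were on a C57BL/6 background. Each of the 9 groups (3 tissues, 3 genotypes) had 3 Illumina BeadChip arrays, 27 in all, and each array held total RNA of a snap-frozen tissue. A knockout-first allele carries a trapping cassette in an intron and leaves the exons in place, in every cell of the animal. Age, sex and the part of the brain that was taken are not stated in the sources at hand.

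Glutamate opens AMPA, kainate and NMDA receptors, which are cation channels assembled from several subunits, and it also acts on metabotropic receptors that signal through G proteins. GABA opens the chloride channels of the GABA-A class, likewise assembled from subunits, and acts on GABA-B receptors, which are paired G protein-coupled proteins. Which subunits a neuron makes differs between brain regions and sets the kinetics, the calcium entry and the drug response of its synapses.

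The brain arrays were even in detection, at 43.3% to 44.4% of probes, and the Mysm1 probe bore out their labels. Their mean raw signal was 352.6 to 372.8 in wild type, 304.1 to 321.5 in heterozygotes and 285.3 to 310.4 in homozygotes, so that before normalisation every wild-type array was brighter than every mutant array. Within a genotype, the correlation between arrays over genes was 0.991 to 0.995. Mysm1 (probe ILMN_3119954) read 8.28, 8.43 and 8.34 (log2 intensity) in wild-type brain, 7.74, 7.53 and 7.78 in heterozygotes and 6.41, 6.37 and 6.47 in homozygotes, with no overlap between genotypes. Its level in homozygotes was lower than in wild type by 3.82-fold (limma adjusted p = 5.31e-05). The position of the probe relative to the trapping cassette is not stated in the sources at hand. The 3 wild-type brains shared a BeadChip with homozygous livers, and the 6 other brains shared another BeadChip. A difference between wild-type brain and either mutant genotype therefore cannot be told apart from a difference between BeadChips or in this brightness, whereas homozygotes and heterozygotes were compared within 1 BeadChip.

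The brain arrays stood apart from each other by markers of brain regions, and arrays of every genotype lay on either side. The mean level of 7 measured striatal genes (Drd1, Drd2, Pde10a, Penk, Ppp1r1b, Rgs9 and Tac1) was 7.65, 8.38 and 10.08 on the wild-type arrays 1 to 3, 9.88, 7.44 and 7.39 on the heterozygous arrays and 9.89, 8.02 and 9.90 on the homozygous arrays. Wild-type array 3, heterozygous array 1 and homozygous arrays 1 and 3 were thus the 4 above 9. The mean of the 5 measured hypothalamic and pituitary markers ran the other way in wild type, at 8.75, 8.71 and 5.75. It read 6.17, 7.60 and 7.97 in heterozygotes and 6.27, 7.54 and 7.28 in homozygotes. Pmch, a neuropeptide gene of the lateral hypothalamus, read 5.82 on wild-type array 3, 5.57 on heterozygous array 1 and 5.39 on homozygous array 1, 8.34 on homozygous array 3, and between 11.03 and 12.13 on the remaining 5. Hcrt followed the same split, whereas Oxt and Avp went the other way in both mutant genotypes. Oxt read 9.19, 6.91 and 7.45 in heterozygotes and 9.64, 6.60 and 10.26 in homozygotes. For Avp the values were 7.16, 6.29 and 6.96, then 7.24, 5.27 and 8.42. The mean of the 7 measured cerebellar markers lay between 6.73 and 6.99 on the 4 arrays rich in striatal markers and between 7.37 and 7.61 on the others. Among these markers, Calb2, Cbln1 and En2 were lower on each of those 4 arrays than on every other array. Cdh15, Slc1a6, Zic1 and Zic2 were not. In contrast, the mean of 7 neuronal markers ranged by 0.13 over all 9 arrays. The part that region content plays in the receptor values was not tested. Receptor genes split by the 4 arrays (below, Gria3, Grik2, Grik5, Gabrd and Gabrb1) were noticed after the values were seen. The share of all features with such a split was not counted, so it is not given as a trait of receptor genes. All comparisons use the 9 arrays unless stated. Without the 4 arrays, which leaves 1 homozygous array, the sign of the difference turned for 7 of 24 receptor genes in homozygotes against wild type, 6 in heterozygotes against wild type and 6 between the mutants, none of them called with either set of arrays.

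**Figure D1:**
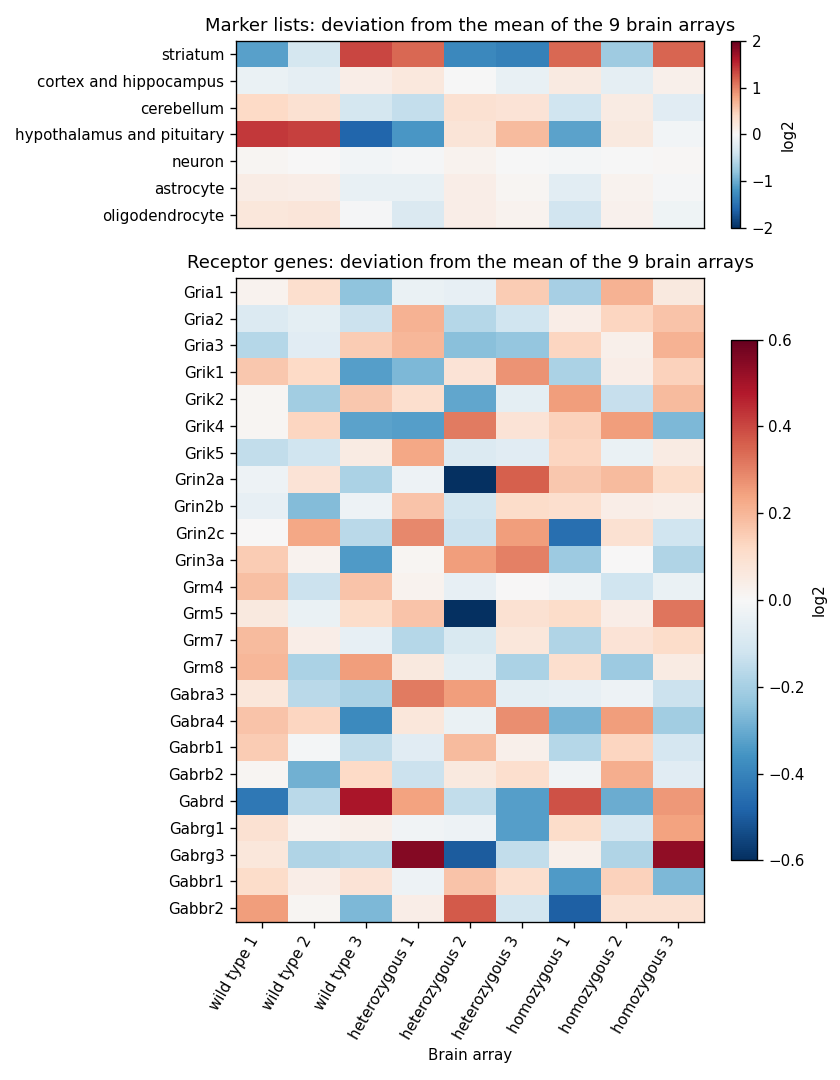
Deviation of each brain array (columns) from the mean of the 9 brain arrays, in log2 units, for 7 marker lists (upper panel, colours limited at 2) and the 24 measured receptor genes (lower panel, colours limited at 0.6). Wild-type array 3, heterozygous array 1 and homozygous arrays 1 and 3 are red for striatum and for Gabrd, and heterozygous array 2 holds the lowest values of Grm5 (-0.87) and Grin2a (-0.65).

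No measured receptor gene passed the test for a genotype difference in brain. In limma's fit over all 14423 features, 0 of 24 passed an adjusted p of 0.05 for homozygotes against wild type, where 1 feature in all (0.00693%), Mysm1 itself, passed. The count was 0 of 24 for heterozygotes against wild type, where no feature passed (0%), and 0 of 24 for homozygotes against heterozygotes, where 1 feature (0.00693%), again Mysm1, passed. At an unadjusted p below 0.05 the counts were 0, 0 and 1 of 24, against 5.25%, 5.87% and 6.18% of all features. The median log2 difference of the 24 genes was 0.05, 0.06 and 0.02 in the 3 comparisons, against 0 over all features each time. Without the 4 arrays rich in striatal markers, and with the striatal level as a covariate, the count was again 0 of 24 in each comparison. In tissue RNA a difference, had there been one, could not be told apart between fewer cells that make a transcript and less of it per cell.

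The 95% intervals show the sizes of change in normalised intensity that these arrays leave possible, gene by gene and with no adjustment over genes. Against wild type these changes include any difference between BeadChips. For probes near background, such as those of Grin2c and Gabra4 (detected on 4 and 6 of 9 brain arrays), the intervals do not bound the change of the transcript. Over the 24 genes they reached from -0.56 to 0.81 for homozygotes against wild type, from -0.79 to 0.65 for heterozygotes against wild type and from -0.68 to 0.89 for homozygotes against heterozygotes (log2 difference). Changes larger than 1.75-fold, 1.72-fold and 1.86-fold in either direction thus lay outside every gene's interval in the respective comparison. These bounds come from the wider side. That side was an increase in homozygotes against wild type, a decrease in heterozygotes against wild type and an increase between the mutants. On the other side the intervals ended nearer to no change. The narrowest interval for homozygotes against wild type belonged to Grm4, at -0.36 to 0.09, and the widest to Gabrg3, at -0.37 to 0.81.

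**Figure D2:**
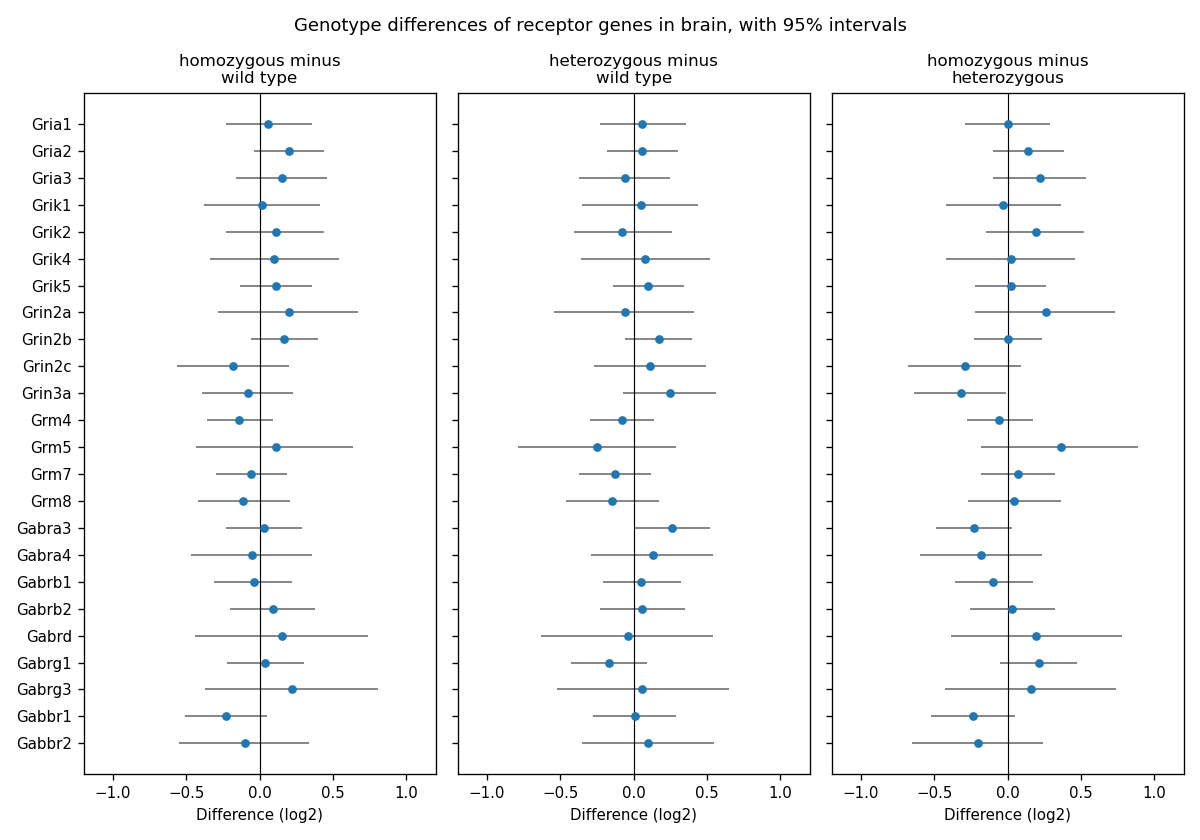
Log2 difference (points) and 95% interval of limma's fit (lines) for the 24 measured receptor genes in the 3 genotype comparisons of brain, 3 arrays per genotype. The intervals span 0 for every gene except Grin3a in homozygotes against heterozygotes, at -0.64 to -0.01 before any adjustment over features.

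The AMPA receptor subunits measured were Gria1, Gria2 and Gria3. Gria2, whose edited subunit makes AMPA receptors nearly impermeable to calcium, had the smallest p of the 24 genes in homozygotes against wild type. Its probe ILMN_2680737 read 11.69, 11.71 and 11.64 in wild type, 11.98, 11.60 and 11.65 in heterozygotes and 11.81, 11.90 and 11.94 in homozygotes. Every homozygous array lay above every wild-type array, while heterozygotes spanned both groups. The difference of 0.20 ± 0.11 (SE) did not pass the test (unadjusted p = 0.0883, limma adjusted p = 0.957). Its 2 other detected probes gave 0.15 and 0.12 for the same comparison.

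The Gria2 start region is shown because Gria2 was the sole receptor gene whose window held the core of an RE1 element, the binding sequence of REST, a repressor of neuronal genes in cells that are not neurons. RefSeq start windows (GRCm38.p6, 250 bases before to 50 after a gene's start) were at hand for 27 of the 36 genes, 15 of them measured in brain, as 34 windows. The core, spelled AGCACC, then any 2 bases, then GGACAG, and sought on both strands, was in 1 of these 34 windows and in 0.0517% of all 32851 windows. The sequence recognised by the activator NRF1, spelled GCGC, then any base, then TGCGC, and sought on both strands, was in 2 of the 34 windows, those of Gria2 and Gabrb1, and in 4.60% of all windows. In the 30-base stretches below, written 5′ to 3′ on the gene's strand, capitals mark the match.
Gria2, RE1 core, chr3:80802984-80803013, minus strand: ccaaagcgCTGTCCGCGGTGCTaaaatcga
Gria2, NRF1, chr3:80802811-80802840, minus strand: gcctcgagtcGCGCACGCGCgcccgggact
Gabrb1, NRF1, chr5:71699906-71699935, plus strand: agtaccctctGCGCATGCGCaggtccattc
The RE1 match reads as the reverse complement of the spelled core and begins at position -170 from the Gria2 start. The same core with 1 more base, a C, before it was in 0 of the 34 windows and in 0.0365% of all windows. These are matches of letters in a window, and no measurement of binding was made.

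Gria1, the subunit whose insertion at synapses accompanies long-term potentiation, read 11.14, 11.22 and 10.89 in wild type, 11.09, 11.07 and 11.27 in heterozygotes and 10.92, 11.33 and 11.18 in homozygotes, so the genotypes overlapped fully. Gria3, an X-linked subunit, read 9.23, 9.34 and 9.55, then 9.61, 9.16 and 9.17, then 9.54, 9.44 and 9.61 in the same order of genotypes. The 4 highest Gria3 values were those of the 4 arrays rich in striatal markers. The differences of homozygotes from wild type were 0.06 ± 0.13 for Gria1 and 0.15 ± 0.14 for Gria3 (log2, SE). Gria4, the remaining AMPA subunit, was detected on 2 of 9 brain arrays.

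The kainate receptor subunits Grik1, Grik2, Grik4 and Grik5 were measured, and in each of them the genotypes overlapped. Grik1 and Grik2 encode subunits that form channels by themselves. Grik1 read 7.99, 7.95 and 7.50 in wild type, 7.56, 7.91 and 8.10 in heterozygotes and 7.64, 7.87 and 7.98 in homozygotes. Grik2 read 7.06, 6.83 and 7.21, then 7.15, 6.74 and 6.99, then 7.29, 6.90 and 7.23, and its 4 highest values were again those of the 4 striatal-rich arrays. Grik4 and Grik5 encode high-affinity subunits that need a partner to form channels. Grik5 read 7.58, 7.62 and 7.79 in wild type, 7.96, 7.66 and 7.67 in heterozygotes and 7.86, 7.69 and 7.78 in homozygotes, also highest on those 4 arrays. Grik4 lay between 5.39 and 6.03 over the 9 arrays. The 4 differences of homozygotes from wild type ran from 0.02 to 0.11 (log2), and Grik3 was detected on 2 of 9 arrays.

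Of the NMDA receptor subunits, Grin2a, Grin2b, Grin2c and Grin3a were measured. Grin2b, the glutamate-binding subunit that prevails before maturity and in the forebrain, read 10.45, 10.24 and 10.48 in wild type, 10.68, 10.39 and 10.62 in heterozygotes and 10.60, 10.55 and 10.53 in homozygotes. All homozygous arrays lay above all wild-type arrays, and the heterozygous mean was as high. Both mutant genotypes differed from wild type by 0.17 ± 0.10 (unadjusted p = 0.127 in homozygotes and 0.123 in heterozygotes, limma adjusted p = 0.972 and 0.927).

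Grin3a, a glycine-binding subunit that lowers the calcium permeability of the channel, had the smallest p of the 24 genes between homozygotes and heterozygotes. It read 10.90, 10.78 and 10.42 in wild type, 10.77, 11.01 and 11.06 in heterozygotes and 10.53, 10.76 and 10.57 in homozygotes. The homozygous arrays all lay below the heterozygous arrays, by 0.01 at the nearest, and wild type spanned both. The difference of -0.32 ± 0.14 had an unadjusted p of 0.0441 and a limma adjusted p of 0.805. In a fit with the striatal marker level as a covariate, added once the data had been seen, it was -0.18 ± 0.08 (unadjusted p = 0.0514, limma adjusted p = 0.55). Heterozygotes against wild type gave 0.25 ± 0.14 (unadjusted p = 0.11, limma adjusted p = 0.927), and 0.10 without wild-type array 3.

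Grin2a, the glutamate-binding subunit that comes to prevail in the adult forebrain, was detected on 8 of 9 brain arrays. It read 5.24, 5.35 and 5.08 in wild type, 5.24, 4.62 and 5.63 in heterozygotes and 5.43, 5.46 and 5.38 in homozygotes. The homozygous arrays lay above wild type, and the heterozygotes held both the lowest and the highest value. Grin2c, known for cerebellar granule cells, was detected on 4 of 9 arrays and lay between 4.37 and 5.11. Grin2d was detected on no brain array and Grin3b on 2.

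Grm4, Grm5, Grm7 and Grm8 were the metabotropic glutamate receptors measured. Grm5, a postsynaptic receptor that couples to phospholipase C, read 9.91, 9.81 and 9.96 in wild type, 10.01, 8.98 and 9.94 in heterozygotes and 9.96, 9.88 and 10.16 in homozygotes. The value of 8.98 on heterozygous array 2 lay 0.87 below the mean of the 9 arrays, and the other 8 lay within 0.32 of it. Another Grm5 probe, ILMN_1226905, also gave a heterozygous mean below wild type (-0.37), whereas ILMN_1248753 did not (0.08).

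Grm4, Grm7 and Grm8 encode presynaptic receptors that inhibit adenylyl cyclase. Grm4 read 8.41, 8.10 and 8.40 in wild type, 8.25, 8.18 and 8.23 in heterozygotes and 8.21, 8.11 and 8.19 in homozygotes. Homozygotes and wild type differed by -0.14 ± 0.10 (unadjusted p = 0.199, limma adjusted p = 0.982). This direction rested on 1 probe: a dimmer Grm4 probe, detected on 3 arrays, gave 0.23, and the mean of both gave 0.05. Grm7 lay between 9.05 and 9.42 and Grm8 between 6.38 and 6.85 over the 9 arrays, with the genotypes overlapping in both. Grm3 and Grm6 were detected on no brain array.

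Of the GABA-A receptor subunits 7 were measured. Gabra3, an X-linked alpha subunit, had the smallest p of the 24 genes between heterozygotes and wild type. It read 7.19, 6.96 and 6.93 in wild type, 7.43, 7.36 and 7.06 in heterozygotes and 7.07, 7.09 and 6.99 in homozygotes. Heterozygous array 3 lay within the wild-type range and the other heterozygous arrays above it. The difference was 0.26 ± 0.12 against wild type (unadjusted p = 0.0515, limma adjusted p = 0.847) and that of homozygotes from heterozygotes -0.23 ± 0.12 (unadjusted p = 0.0749, limma adjusted p = 0.816).

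Gabrd, the delta subunit of receptors that lie outside synapses and carry tonic inhibition, was among the 4 measured genes with the largest spread within genotypes. Its probe read 8.20, 8.46 and 9.12 in wild type, 8.87, 8.47 and 8.30 in heterozygotes and 9.01, 8.33 and 8.89 in homozygotes. The 4 values from 8.87 to 9.12 were those of the 4 arrays rich in striatal markers, and the other 5 lay between 8.20 and 8.47. Another Gabrd probe followed it over the 9 arrays (Pearson r = 0.97, given as a description). The residual SD of the Gabrd probe was 0.382 (log2), and the difference of homozygotes from wild type was 0.15 ± 0.26, and -0.01 ± 0.10 with the striatal level as a covariate.

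Gabrb1 and Gabrb2 encode beta subunits, which with an alpha subunit form the GABA binding site. Gabrb1 read 9.56, 9.40 and 9.26 in wild type, 9.34, 9.60 and 9.44 in heterozygotes and 9.24, 9.54 and 9.32 in homozygotes, and its 4 lowest values were those of the striatal-rich arrays. Gabrb2 lay between 6.89 and 7.39, with the genotypes overlapping. Gabrg1 and Gabrg3 encode gamma subunits, the class whose presence gives benzodiazepine sensitivity. Gabrg1 read 6.26, 6.19 and 6.20 in wild type, 6.15, 6.15 and 5.84 in heterozygotes and 6.28, 6.08 and 6.41 in homozygotes, so the heterozygotes lay below wild type, with a difference of -0.17 ± 0.12 (unadjusted p = 0.172, limma adjusted p = 0.931). Without heterozygous array 3 that difference was -0.07, and on the authors' deposited processed values it was -0.05. Gabrg3 read 5.92, 5.66 and 5.67, then 6.40, 5.35 and 5.70, then 5.87, 5.67 and 6.37, and had the largest residual SD of the 24 genes, 0.383. Its difference of homozygotes from wild type was 0.22 with all arrays and -0.12 ± 0.20 without the 4 striatal-rich arrays.

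Gabra4, an alpha subunit of thalamus, striatum and hippocampus, was detected on 6 of 9 brain arrays and lay between 4.66 and 5.31. Gabra5 and Gabra6 were detected on none, Gabrq on 1, and the rho subunits Gabrr1, Gabrr2 and Gabrr3, best known from the retina, on none.

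The GABA-B receptor needs both of its subunits: Gabbr1 binds GABA and Gabbr2 couples to the G protein. Gabbr1 read 8.87, 8.79 and 8.84 in wild type, 8.73, 8.93 and 8.86 in heterozygotes and 8.42, 8.90 and 8.49 in homozygotes. Homozygous arrays 1 and 3, which are rich in striatal markers, were the 2 lowest of the 9, and homozygous array 2 lay above every wild-type array. The differences were -0.23 ± 0.13 against wild type and -0.24 ± 0.13 against heterozygotes (unadjusted p = 0.0983 and 0.0909, limma adjusted p = 0.962 and 0.832). Without the 4 arrays they turned to 0.07 and 0.01, with 1 homozygous array left, whose spread the fit takes from the other genotypes. Gabbr2 read 5.68, 5.44 and 5.16, then 5.47, 5.80 and 5.32, then 4.94, 5.52 and 5.52.

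**Figure D3:**
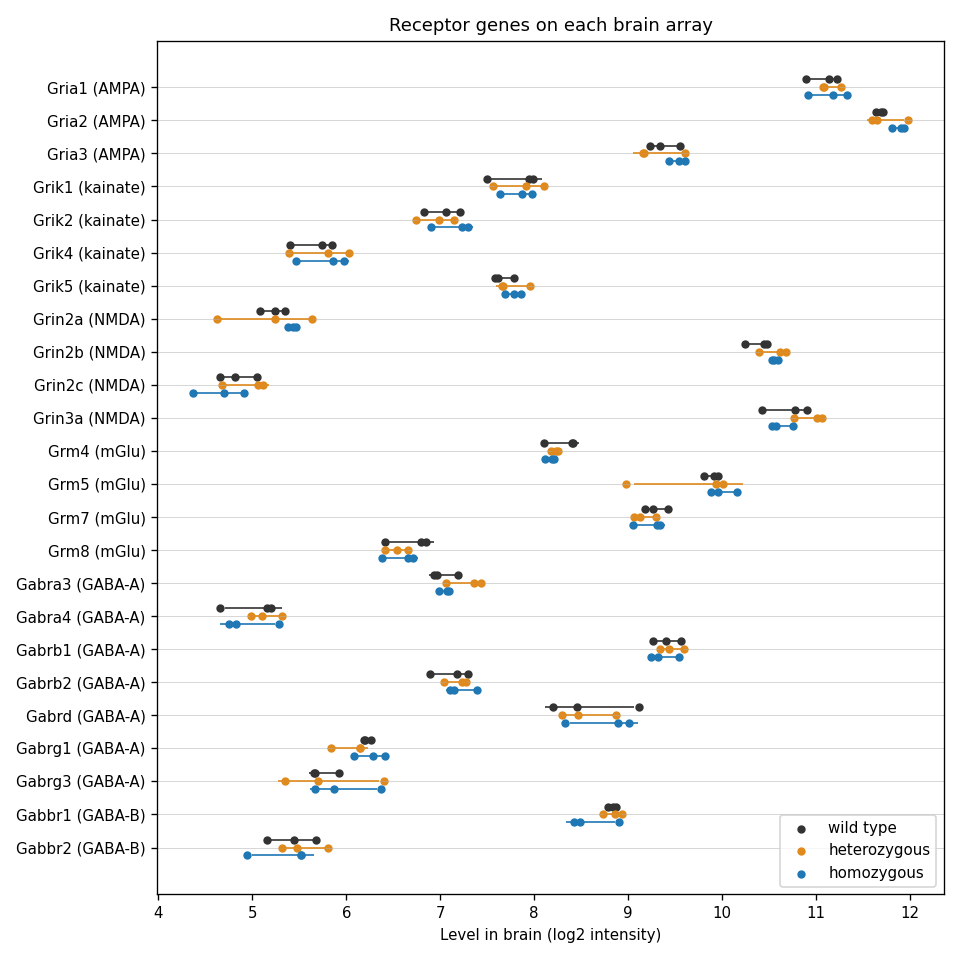
Level of the 24 measured receptor genes on each of the 9 brain arrays (points, log2 intensity after normalisation over the brain arrays), with lines from 1 SD below to 1 SD above the mean of the 3 arrays of a genotype. Colours separate wild type, heterozygotes and homozygotes, and levels compare arrays within a gene, not genes with each other, since probes differ in brightness. Gabrd spans 0.92 and Grm5 1.18 over the 9 arrays, and Grm4 0.31.

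Groups did not overlap for a few receptor genes. Gria2, Grin2a and Grin2b, 3 of 24, lay wholly higher in homozygotes than in wild type, against 5.46% of all features, and 0 of 24 lay wholly lower, against 5.24%. Between heterozygotes and wild type 0 of 24 lay wholly higher (5.69% of all) and 1, Gabrg1, wholly lower (5.26%). Between homozygotes and heterozygotes 0 lay wholly higher (5.41%) and 1, Grin3a, wholly lower (5.42%). With 24 genes each of these counts differs from the background by fewer than 2 genes.

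By class, the 3 AMPA and the 4 kainate subunits all had positive differences between homozygotes and wild type, with medians of 0.15 and 0.10, and both GABA-B subunits negative ones, with a median of -0.17. The NMDA, metabotropic and GABA-A classes were mixed in sign, with medians of 0.05, -0.08 and 0.04. Without the 4 striatal-rich arrays Grik1 (-0.10), Grik2 (-0.04) and Gabbr1 (0.07) had the opposite sign, so the shared signs of the kainate and GABA-B classes did not hold there. The shared AMPA sign depended on the probe. With all 9 arrays, other detected probes gave -0.06, -0.11 and 0.07 for Gria1 and 0.04, -0.14 and 0.03 for Gria3. None of these values belongs to a gene that passed the test, and a class holds between 2 and 7 genes.

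The spread within genotypes is given by the residual SD of the fit. Its median was 0.184 over the 24 genes and 0.149 over all 14423 features. Gabrg3 (0.383), Gabrd (0.382), Grm5 (0.346) and Grin2a (0.304) stood highest. With the striatal level as a covariate the medians were 0.137 and 0.124. In that fit 0 of 24 genes were called in any of the 3 comparisons, where 0.00693%, 0% and 0.00693% of all features were called and 7.43%, 9.76% and 9.12% had an unadjusted p below 0.05. The smallest receptor p was that of Grin3a in heterozygotes against wild type, 0.18 ± 0.07 (unadjusted p = 0.0405, limma adjusted p = 0.486).

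The 36 genes had 76 probes, and 21 genes had several. For 10 genes more than 1 probe was detected in brain, and in 5 of these all detected probes gave the same sign for homozygotes against wild type. The signs were mixed for Gria1, Gria3, Grm4, Grm5 and Grm7. Over the 9 arrays the correlation of a gene's main probe with its least similar other probe ran from 0.97 for Gabrd and 0.89 for Gabrb1 to 0.10 for Grm4, 0.04 for Gria3 and -0.01 for Grm7. These values describe probes on the same 9 arrays, some of them close to background.

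Genes that work with the receptors gave the same count. The 6 lists (synaptic scaffolds, auxiliary subunits, related receptors, glutamate synthesis and transport, GABA synthesis, transport and breakdown, and postsynaptic signalling) held 90 genes, of which 65 were measured in brain. None passed the test in any comparison by limma, where 0.00693%, 0% and 0.00693% of all features did. An unadjusted p below 0.05 was found for 3, 1 and 1 of 65 (4.62%, 1.54% and 1.54%), against 5.25%, 5.87% and 6.18% of all features. Dlg3, a scaffold that anchors NMDA receptors, gave the smallest p against wild type, at 0.27 ± 0.08 in homozygotes (unadjusted p = 0.00917, limma adjusted p = 0.892). Camk2b, a subunit of the calcium-dependent kinase of the postsynaptic density, and Slc1a2, the main astrocytic glutamate transporter, gave 0.21 ± 0.07 and 0.18 ± 0.08 there. Slc1a7, another glutamate transporter, gave 0.36 ± 0.13 in heterozygotes against wild type (unadjusted p = 0.0201, limma adjusted p = 0.769). Glrb, the beta subunit of the glycine receptor, gave -0.37 ± 0.11 in homozygotes against heterozygotes (unadjusted p = 0.00911, limma adjusted p = 0.711). For GABA synthesis, transport and breakdown none of the 8 measured genes had a p below 0.05 in any comparison. Abat, the GABA transaminase, gave -0.07 ± 0.10 in homozygotes against wild type.

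Outside the brain most receptor genes were not detected. Of the 24 genes measured in brain, 3 (12.5%) were detected in liver on at least 3 of 9 arrays, against 75% of the 11429 named genes measured in brain, and 4 (16.7%) in bone marrow, against 67.8%. Neither tissue detected 19 of the 24 (79.2%), against 19% of all. None of the 12 genes not measured in brain reached 3 arrays in liver or marrow. Liver detected Gabra4, Gabrg3 and Grin2b, and marrow Gabra4, Gabrg1, Gabrg3 and Grik2.

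**Figure D4:**
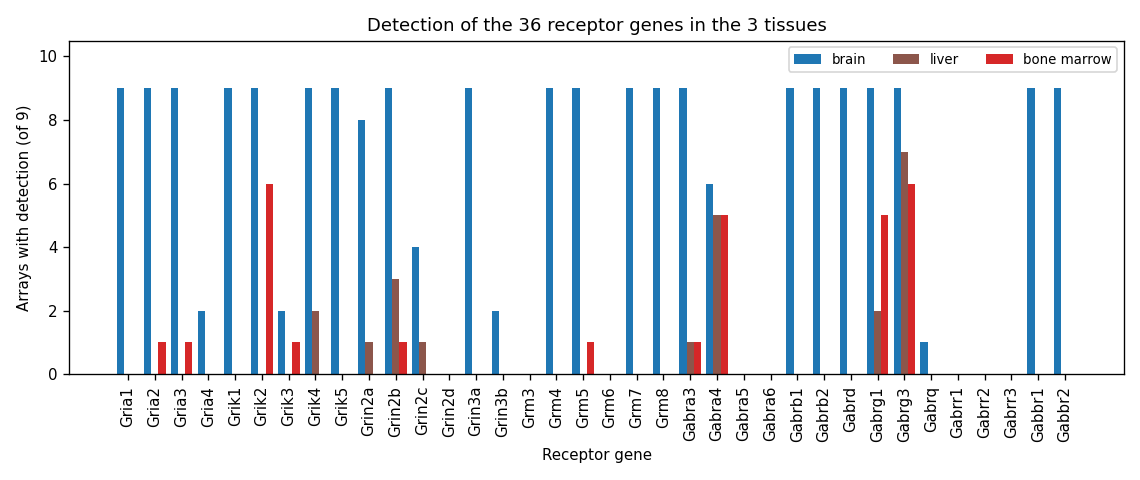
Number of arrays, of 9 per tissue, on which the probe of each of the 36 receptor genes had a detection p below 0.05, by tissue. Brain bars reach 9 for most measured genes, while the highest liver bar (Gabrg3) stands at 7 and the highest marrow bars (Gabrg3 and Grik2) at 6.

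Liver and marrow signals of these genes lay near the detection limit and varied from array to array. The levels in this and the next paragraphs come from a normalisation over all 27 arrays and are log2 intensities. Grin2b in liver was detected on 1 array of each genotype, at 5.49, 5.30 and 5.38 from wild type to homozygotes, and read 4.49 to 4.95 on the 6 others. Gabrg3 in liver was detected on 3 wild-type arrays (5.71, 5.19 and 5.80), 3 heterozygous arrays (5.51, 6.28 and 5.23) and 1 homozygous array (5.25), with 5.08 and 4.35 on the other two.

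Bone marrow arrays were dimmer, at a mean raw signal of 92.14 to 228.4 and with 20% to 35.4% of probes detected, and the Mysm1 probe did not bear out the label on 2 of the 3 arrays labelled homozygous. It read 7.89, 8.02 and 8.16 in wild-type marrow, 8.09, 7.77 and 8.09 in heterozygotes and 8.26, 5.87 and 8.80 on the arrays labelled homozygous. The array labelled homozygous 2 also carried hepatocyte markers, whose mean of 7 genes was 9.76 there and at most 6.58 on the other marrow arrays, and a neuronal marker mean of 6.29, at most 4.87 elsewhere. Gria2 read 7.01 on that array, its sole detection in marrow, and 4.34 to 5.02 on the other 8. Grin2b (7.99) and Grm5 (6.98) were each detected in marrow on the array labelled homozygous 3 alone, the dimmest of the 27. The count of genes detected in marrow was 4 without the array labelled homozygous 2 and 4 without the array labelled homozygous 3. In both marrow and liver the arrays labelled homozygous did not share a BeadChip with the arrays of the other genotypes, so differences of homozygotes there cannot be told apart from BeadChip differences.

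For Gabra4 and Gabrg3 marrow detection differed between labelled genotypes, in opposite ways. Gabra4 read 4.68, 4.99 and 5.13 on the wild-type arrays, with 0 of 3 detected, 6.50, 7.29 and 6.48 in heterozygotes, with 3 of 3 detected, and 5.44, 6.24 and 7.71 on the arrays labelled homozygous, with 2 of 3 detected. In the joint fit of 27 arrays and 17374 features, the homozygous minus wild-type difference of Gabra4 in brain minus that in marrow was -1.56 ± 0.51, which did not pass the test (unadjusted p = 0.00642, limma adjusted p = 0.055), whereas 11.1% of all features did. Gabrg3 was detected on 3 of 3 wild-type, 3 of 3 heterozygous and 0 of 3 arrays labelled homozygous. Its levels there were 5.35, 5.72 and 6.30, then 7.25, 7.28 and 7.21, then 5.73, 4.58 and 6.27, so an undetected probe on a dim array could read as high as a detected one on a brighter array. Grik2 was detected on 3 wild-type (5.71, 5.12 and 6.80), 2 heterozygous (6.06 and 5.74) and 1 of the arrays labelled homozygous (7.06). Gabrg1 was detected on 5 marrow arrays, at 5.71 to 7.89. The part that array brightness plays in these marrow values was not tested.

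In wild-type animals, most receptor genes that could be compared were higher in brain. The tissue fit tested 23 of the 24 genes among 15141 features; Grin2c fell short of the filter. Against liver 19 were higher in brain, where 35.9% of all features were, and 0 lower, where 30.7% were. Against bone marrow 18 were higher (38.2% of all) and 0 lower (34.4%). These genes entered the fit mostly because brain detected them, so the counts describe the set and are no test of it. Wild-type brains and wild-type livers lay on different BeadChips. Against the homozygous livers, which shared the BeadChip of the wild-type brains, 20 passed the test. That count does not separate genes higher in brain from genes lower in brain.

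Gria2, Gria1, Grin3a and Grm5 are given as examples of genes whose main probe the wild-type arrays detected in brain alone. They entered the fit through brain and were picked for the size of the difference, so no p-value is given for them. Each bound below depends on the brightness of the gene's own probe, so the genes are not ranked by it. Where no array of the dimmer tissue detected a gene, a fold is given as a lower bound, with each dim array set to the higher of the gene's own level and the lowest level among detected probes. Gria2 read 11.23, 11.25 and 11.17 in brain, 4.61, 4.35 and 4.59 in liver and 4.73, 4.85 and 5.02 in marrow. Its brain level was at least 72.8-fold above liver and at least 64.3-fold above marrow. Gria1 was at least 45.6-fold above liver and 40.3-fold above marrow, and Grin3a at least 33.4-fold and 29.5-fold. Grm5, at 9.21, 9.10 and 9.27 in brain, was at least 17.9-fold above liver and 15.8-fold above marrow. Grin2b was at least 23.2-fold above marrow, where no wild-type array detected it.

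**Figure D5:**
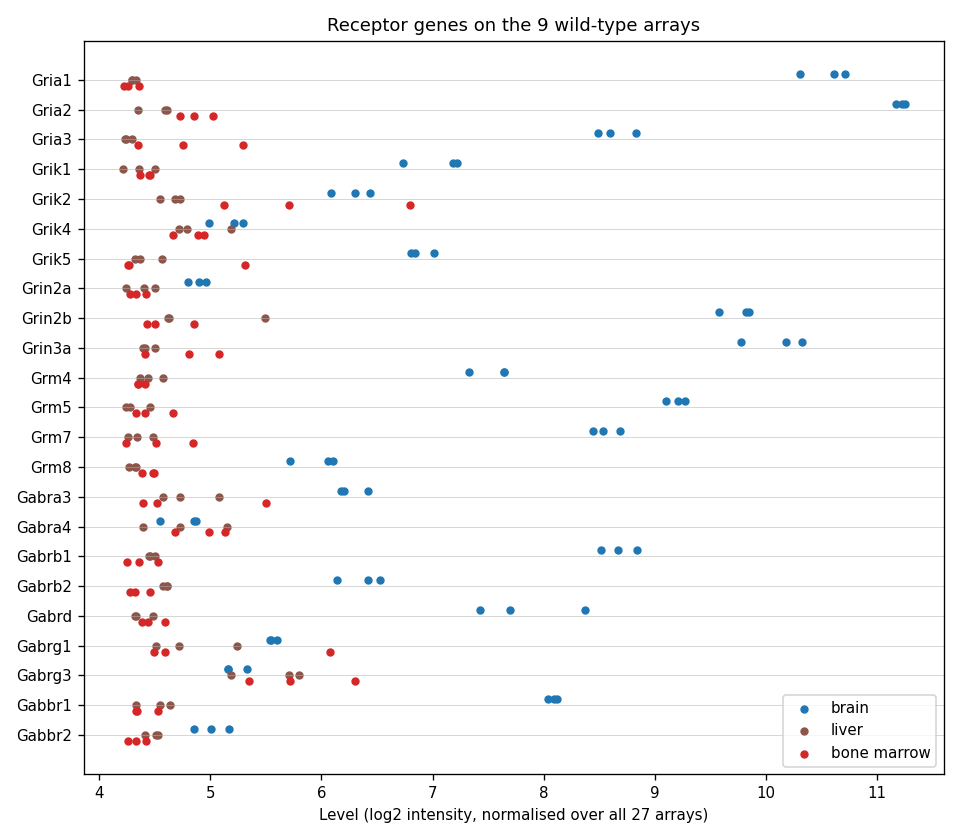
Level of 23 receptor genes on the 9 wild-type arrays (points, log2 intensity normalised over all 27 arrays), 3 arrays each of brain, liver and bone marrow. Gria2 and Gria1 lie higher in brain than in liver and marrow on every array, and for Gabra4 and Gabrg3 the tissues overlap or brain lies lower.

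Grik4, Gabra4, Gabrg1 and Gabrg3 did not pass the test against liver, nor did these 4 and Grik2 against marrow. Grik4 read 5.21, 5.29 and 4.99 in brain and 5.19, 4.79 and 4.72 in liver, 0.26 ± 0.15 apart (limma adjusted p = 0.16). Gabra4 read 4.87, 4.85 and 4.55 in brain and 5.15, 4.39 and 4.73 in liver, with a difference of 0.00 ± 0.20. Gabrg3 was lower in brain by 0.35 and 0.58 than in liver and marrow by its means of 5.22, 5.57 and 5.79, without passing the test (limma adjusted p = 0.232 and 0.0574). Grik2, with 6.28 in brain, was 0.40 ± 0.35 above marrow (limma adjusted p = 0.322) and at least 2.37-fold above liver, where its main probe was not detected in wild type (limma adjusted p = 0.00242). Another Grik2 probe, ILMN_1233956, was detected on 6 liver arrays, and another Gria3 probe, ILMN_2638066, on 5 liver and 5 marrow arrays, which the main probe of each gene did not show.

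The homozygous against wild-type difference of a receptor gene was set against liver or marrow where that tissue also detected the gene. For Gabra4, Grin2b and Gabrg3 the difference in brain minus that in liver was -0.52 ± 0.51, 0.19 ± 0.70 and 0.84 ± 0.50, and none passed the test (limma adjusted p = 1 for each), which 0.138% of all features passed. For Grik2, Gabrg3 and Gabrg1 brain minus marrow was 0.17 ± 0.60, 0.43 ± 0.50 and -1.19 ± 0.72 (limma adjusted p = 0.887, 0.609 and 0.293). The share of all features that passed against marrow is the 11.1% given above. The marrow values rest on arrays whose homozygous label Mysm1 did not bear out on 2 of 3, and both sets of values carry the BeadChip differences named above.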

How the data were processed

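Brain, liver and bone marrow RNA of 3 genotypes was measured on Illumina arrays, 3 per group. Per the file headers, the deposited scanner table gives 45281 probes a mean signal, the bead standard error, the bead number (another kind of value) and a detection p-value. The deposited signals are linear intensity values without normalisation between arrays. A deposited table of processed intensity values, used as an alternative, has column medians of 85.4 to 85.6, and 27 of 27 columns were most similar to the scanner column of the same sample. Per the submitters' processing notes BeadStudio and limma were used; versions, steps and the genome build of the probes are not stated in the sources at hand.

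Signals were corrected and normalised with limma's neqc (limma 3.58.1, R 4.3.3; control level estimated through the detection p-values, offset 16), over the 9 brain arrays or, for tissue comparisons, over all 27, on the log2 scale. A probe stayed in if 3 or more arrays had a detection p under 0.05, and a gene was represented by its brightest such probe. For the tissue comparisons, brightest means the highest mean over the brain arrays, a choice that can favour brain. Gene names came from the platform annotation: 34885 probes had 1 symbol, 18 several and 10378 none, and probes with several named no gene. Some genes of these families are not reported here. The 3 genotypes were fitted together with lmFit and eBayes, tested two-sided and adjusted by Benjamini-Hochberg over 14423 features (brain) or 15141 (tissues) at a threshold of 0.05. Per the design text, tissue groups compare animals, so each array counts as 1 animal, and their number limits the precision. The fits were tested on simulated data, with changes given to 50 features per size in homozygotes against wild type. Of changes of 0.5 (log2) 42% were called, of 1 80%, of -1 74% and of 2 96%. Changes of the sizes seen in the receptor genes could thus go uncalled. Replicate numbers are not stated to pair the brain arrays. Correlations of same-numbered residuals ran from -0.55 to 0.43, which with 3 arrays per genotype cannot settle whether animals were paired.

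Named genes are, per brain comparison, the 4 with the smallest p. They also include the 4 with the largest residual SD and those detected in liver or marrow. A further 4 had the largest tissue difference among genes whose main probe the wild-type arrays detected in brain alone. Of other lists, some of the 2 genes with the smallest p are named. Other genes, the region markers set beside them and the motifs shown (of 11 spellings searched) were picked after their values were seen. The members and all lists were chosen with earlier results of these data known.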

Additional observations from a re-analysis of the deposited data

How the results depend on the processing

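The count of receptor genes called in brain was 0 under 63 of 63 alternatives: other normalisations, offsets, filters and probe rules, the authors' processed values, array weights, the genotypes compared alone, each array left out in turn, and the striatal alternatives, which were chosen after seeing the data. The replicate number as a block changed no call (0 receptor genes in each comparison, and 1, 0 and 1 features in all). Of all features, 2 in place of 1 passed for homozygotes against wild type under quantile normalisation without background correction, neqc over all 27 arrays and an offset of 50; leaving out 1 array gave 1 to 2, the 2 without heterozygous replicate 3. That count was 0 without the 4 arrays rich in striatal markers. Between homozygotes and heterozygotes it was 0 with the mean of a gene's probes and 0 without those 4 arrays, which leave 1 homozygous array. Single genes were followed for the 4 with the smallest p in each comparison. Of their 252 alternatives 249 kept the direction and the side of the threshold and 3 reversed: Grm4 in homozygotes against wild type, 0.05 with the mean of its probes, and Gabbr1 without the 4 arrays, 0.07 against wild type and 0.01 against heterozygotes. Over all 24 measured genes, leaving out those 4 arrays turned the sign of 7, 6 and 6 differences in the 3 comparisons, of which the largest with all arrays was 0.23, 0.13 and 0.29 in size. The causes were not tested. Leaving out 1 array moved the median receptor difference between -0.02 and 0.08 in homozygotes against wild type, -0.01 and 0.08 in heterozygotes against wild type and -0.02 and 0.06 between the mutants.

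Detection outside brain depended on its rule by construction. In liver 1 receptor gene was detected at a p below 0.01, 5 when any probe counted, 0 on all 9 arrays and 8 on at least 1 array; in marrow 2, 5, 0 and 9 in the same order. Between tissues, the number of receptor genes past the threshold stayed at 19 to 20 against liver and 18 to 20 against marrow. That range covers 16 and 15 alternatives, the replicate block giving 19 and 19. A random BeadChip block was not run, since BeadChip follows genotype among the brain arrays. Signals near background limit the liver and marrow values.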
